A study of Mus musculus with 12 samples.

Results

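The PD-1 and CD28 ligands of the B7 family were followed in CD11c cells from inguinal lymph nodes of mice. They were taken by name as 7 genes, Cd274, Pdcd1lg2, Cd80, Cd86, Icosl, Cd276 and Vsir, out of 52355 genes in the estimated counts, and all 7 passed the filter on low counts. RNA was sequenced from 12 libraries in 3 groups of 4. The agonist group came from nodes that drained a subcutaneous KPC tumor, a mouse model of pancreatic carcinoma, in mice given a CD40 agonist. The tumor-draining group came from nodes that drained such a tumor without the agonist, and the healthy group from nodes of mice with no tumor. The sources used here do not give the strain, the age, the agonist's dose and timing, any control treatment or the purity of the CD11c cells. Whether each library came from its own animal is not said in the labels, and p-values therefore rest on a spread between samples that may be technical. Itgax, which encodes CD11c, stood at 641 to 921 CPM (counts scaled by library size) in agonist libraries, 751 to 1129.7 CPM in tumor-draining libraries and 647 to 1090.1 CPM in healthy libraries, so the label's marker was present in all 12.

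B7 family ligands on antigen-presenting cells bind receptors of the CD28 family on T cells. CD80 and CD86 give the costimulatory signal through CD28 and are also bound by the inhibitory receptor CTLA-4, while PD-L1 and PD-L2 bind the inhibitory receptor PD-1, and ICOS ligand binds ICOS. CD40 signaling is known to raise costimulatory ligands on dendritic cells, and interferon gamma is a known inducer of PD-L1 in many cell types.

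RefSeq promoter windows (GRCm38.p6), each running from 250 bases before to 50 bases after the annotated start, were found for 6 of the 7 genes, with Cd86 the exception. Those of the 3 genes whose RNA was called higher in agonist than in healthy nodes and that of Icosl, which had the lowest agonist to tumor-draining fold, are shown because the results below turn on these genes. All 4 are given 5′ to 3′ on the strand of the gene, here the plus strand, at chr19:29367188-29367487 for Cd274, chr19:29410669-29410968 for Pdcd1lg2, chr16:38458683-38458982 for Cd80 and chr10:78069118-78069417 for Icosl. Capitals mark matches to the core of the interferon regulatory factor motif, AANNGAAA on the opposite strand, in Cd274, Pdcd1lg2 and Cd80, and to the NF-kB consensus in Pdcd1lg2 (the first run of capitals) and Icosl.
Cd274: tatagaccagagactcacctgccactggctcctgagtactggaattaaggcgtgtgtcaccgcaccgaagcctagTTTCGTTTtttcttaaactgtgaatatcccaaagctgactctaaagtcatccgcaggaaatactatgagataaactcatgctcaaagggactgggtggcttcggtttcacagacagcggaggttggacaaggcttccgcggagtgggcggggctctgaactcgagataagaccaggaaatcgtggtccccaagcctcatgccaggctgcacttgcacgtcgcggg
Pdcd1lg2: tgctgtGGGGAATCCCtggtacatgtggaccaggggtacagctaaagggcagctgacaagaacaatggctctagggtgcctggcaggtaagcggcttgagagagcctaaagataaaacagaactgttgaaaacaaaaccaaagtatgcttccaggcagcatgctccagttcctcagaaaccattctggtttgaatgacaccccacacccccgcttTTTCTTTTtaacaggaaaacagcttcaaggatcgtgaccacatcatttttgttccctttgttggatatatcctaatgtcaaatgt
Cd80: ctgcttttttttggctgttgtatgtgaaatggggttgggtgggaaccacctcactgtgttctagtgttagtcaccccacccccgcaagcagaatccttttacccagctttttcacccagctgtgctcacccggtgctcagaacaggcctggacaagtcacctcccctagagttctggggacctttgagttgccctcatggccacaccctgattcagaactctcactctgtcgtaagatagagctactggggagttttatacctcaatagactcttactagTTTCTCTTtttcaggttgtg
Icosl: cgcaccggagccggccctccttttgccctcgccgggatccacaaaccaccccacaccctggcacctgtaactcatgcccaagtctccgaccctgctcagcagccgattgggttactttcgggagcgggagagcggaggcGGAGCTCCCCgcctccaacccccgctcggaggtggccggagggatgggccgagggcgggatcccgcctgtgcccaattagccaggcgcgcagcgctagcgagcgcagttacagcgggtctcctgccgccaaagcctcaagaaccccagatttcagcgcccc
The interferon regulatory factor core lay at bases -175 to -168 in Cd274, -35 to -28 in Pdcd1lg2 and 31 to 38 in Cd80, counted from the annotated start. The NF-kB consensus lay at bases -244 to -235 in Pdcd1lg2, where the same letters match on both strands, and at -111 to -102 on the opposite strand in Icosl. None of the 6 windows held the interferon-gamma-activated site TTCNNNGAA. Both strands were searched, with no overlap between matches of different motifs. Among 32851 windows of this length, 23.9% held the first motif, 8.46% the NF-kB consensus and 8.3% the last one, and the windows of Cd276 and Vsir held none of them. The RefSeq starts of Cd80, Icosl and Cd276 lie inside the spans that GENCODE M21 gives for these genes, that of Cd80 the furthest. The start of Cd274 lies just before its span. These matches describe letters in a window and were searched for after the expression values were known.

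Cd274 (GRCm38 chromosome 19, 29367455 to 29388095, plus strand) encodes PD-L1. It had 207, 201, 203 and 168 CPM in agonist replicates 1 to 4, 119, 108, 136 and 101 CPM in tumor-draining replicates and 66.2, 74.3, 74.9 and 68.5 CPM in healthy replicates. All agonist libraries lay above all tumor-draining libraries, and these above all healthy ones. In bulk samples such as these, fewer cells of a type and less RNA per cell cannot be told apart. The agonist to tumor-draining fold was 1.68 (95% interval 1.40 to 2.02; log2 fold change 0.75, SE 0.12, adjusted p = 0.00572, quasi-likelihood test of edgeR, Benjamini-Hochberg adjustment over 23729 genes). The agonist to healthy fold was 2.74 (2.27 to 3.30; log2 fold change 1.45, adjusted p = 2.34e-05). The difference between the groups made up 95.8% of the variance of the gene's log2 CPM, and the title prefix that 1 library of each group shares made up 2.61%.

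The title prefix was read as pairing the libraries, although the labels do not say what it marks. A second fit therefore took it as a block, and for the ligands its calls stand beside the first wherever they differ. For Cd274 the agonist minus tumor-draining difference was positive in all 4 prefix pairs, from 0.58 to 0.90 on the log2 scale. The tumor-draining minus healthy difference lay between 0.54 and 0.86 in the 4 pairs. In the fit without the block this second step was close to the threshold (log2 fold change 0.71, adjusted p = 0.0436), and it was lost on leaving out any single library of the 2 groups except tumor-draining replicate 4 (adjusted p = 0.0248 to 0.199 over the 8 fits). With the block it was called in all 8 such fits (adjusted p = 0.00144 with all libraries). The comparisons share libraries, so their values are given side by side and not as separate evidence.

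**Figure D1:**
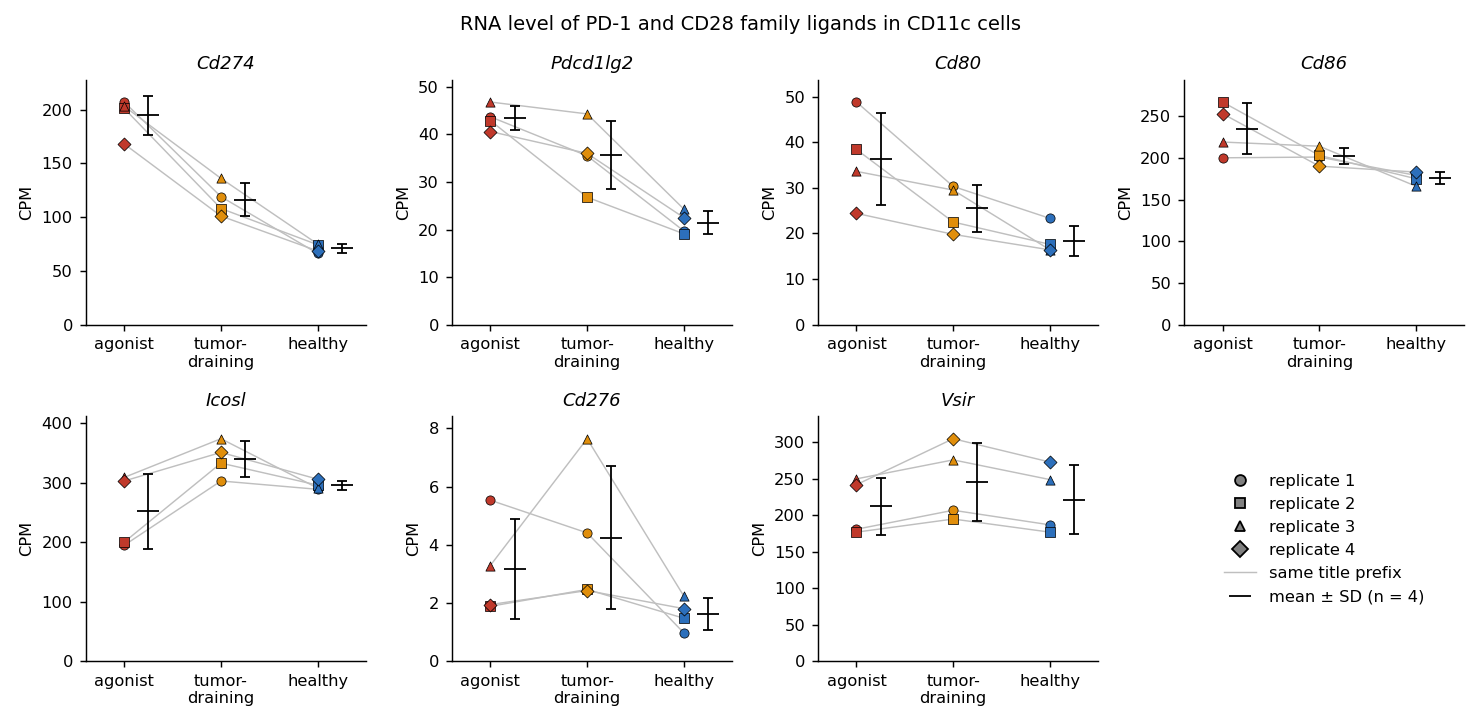
CPM of the 7 ligands in each library, with groups along the horizontal axis, marker shapes for replicates, grey lines joining libraries of the same title prefix and bars for the mean ± SD (n = 4). Cd274 falls into 3 levels with no overlap, from 168 to 207 CPM in agonist libraries to 66.2 to 74.9 CPM in healthy libraries, whereas the Vsir lines run nearly parallel and are spread by prefix.

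Pdcd1lg2 (chromosome 19, 29410919 to 29471161, plus strand), which encodes PD-L2, starts 22824 bases past the end of Cd274 on the same strand. Agonist replicates held 43.7, 42.9, 46.8 and 40.6 CPM of it, tumor-draining replicates 35.5, 26.8, 44.3 and 36.0 CPM, and healthy replicates 19.7, 19.1, 24.3 and 22.5 CPM. Both groups with a tumor lay entirely above the healthy group, while agonist and tumor-draining libraries overlapped through tumor-draining replicate 3. The agonist to healthy fold was 2.03 (1.64 to 2.53; log2 fold change 1.02, SE 0.15, adjusted p = 0.000800). The tumor-draining to healthy fold was of similar size to that of Cd274, 1.67 (1.34 to 2.07; log2 fold change 0.74), with an adjusted p of 0.0564 without the block (0.0348 when tumor-draining replicate 2 was left out) and 0.00272 with it. The agonist to tumor-draining fold was 1.22 (0.98 to 1.51), with an adjusted p of 0.442 without the block. With the block this was 0.0491, and the call was lost on leaving out any of 6 of the 8 libraries, which were both replicates 1, both replicates 2, agonist replicate 3 and tumor-draining replicate 4 (up to 0.186).

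The PD-1 ligands were also compared with each other within libraries, in TPM, an abundance corrected for transcript length. The ratio of Cd274 to Pdcd1lg2 was 1.98 ± 0.108 in agonist libraries, 1.45 ± 0.219 in tumor-draining libraries and 1.46 ± 0.156 in healthy libraries (SD, n = 4 each). Agonist libraries ran from 1.84 to 2.08, above the tumor-draining range of 1.25 to 1.75 and the healthy range of 1.35 to 1.68. These ratios are given as a description, with no test.

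Cd80 (chromosome 16, 38455561 to 38496335, plus strand) encodes the B7-1 ligand of CD28 and CTLA-4. Its level was 48.8, 38.4, 33.6 and 24.4 CPM in agonist replicates, 30.3, 22.5, 29.5 and 19.8 CPM in tumor-draining replicates and 23.3, 17.6, 16.4 and 16.4 CPM in healthy replicates. Agonist libraries lay above healthy ones without overlap, and the tumor-draining libraries overlapped both. The agonist to healthy fold was 1.97 (1.45 to 2.67; log2 fold change 0.98, SE 0.21, adjusted p = 0.0107). Between agonist and tumor-draining nodes the fold was 1.42 (1.05 to 1.93), with an adjusted p of 0.278 without the block and 0.0138 with it, and the pairs differed by 0.19 to 0.77 on the log2 scale, all upward. Between tumor-draining and healthy nodes it was 1.38 (1.02 to 1.88), with an adjusted p of 0.597 without the block and 0.0358 with it, and the pairs by 0.27 to 0.84, all upward. Both block calls depended on single libraries. That against tumor-draining nodes was lost without either replicate 1 or tumor-draining replicate 2 (up to 0.0699), and that between tumor-draining and healthy nodes was kept only without healthy replicate 4 (0.0158 to 0.147 over 8 fits).

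Cd86 (chromosome 16, 36603869 to 36666081, minus strand) encodes B7-2, the other ligand of CD28 and CTLA-4, and was far more abundant. It measured 200.1, 267, 219 and 253 CPM in agonist replicates, 201, 203, 214 and 190.1 CPM in tumor-draining replicates and 179, 175, 166 and 183 CPM in healthy replicates. Healthy libraries lay below those of both other groups, and agonist replicates 1 and 3 lay near the tumor-draining libraries. The agonist to healthy fold was 1.34 (1.12 to 1.60; log2 fold change 0.42, SE 0.12), with an adjusted p of 0.0523 without the block (0.0346 when agonist replicate 1 was left out) and 0.00516 with it. The block call was kept in all 8 fits without 1 library and lost without the whole prefix of replicates 2 (log2 fold change 0.29) or of replicates 3 (0.36, adjusted p = 0.0501). Folds of 1.16 (0.98 to 1.39) for agonist over tumor-draining and 1.15 (0.96 to 1.37) for tumor-draining over healthy were not called in either fit (adjusted p = 0.498 and 0.734, or 0.133 and 0.172 with the block).

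Set against each other, the PD-1 ligands (Cd274 plus Pdcd1lg2) summed to 61.4 ± 4.93 TPM in agonist libraries, 41.8 ± 6.28 TPM in tumor-draining libraries and 26.4 ± 2.94 TPM in healthy libraries (SD, n = 4 each). The CD28 ligands (Cd80 plus Cd86) summed to 117 ± 20.0, 99.9 ± 12.7 and 91.4 ± 5.37 TPM in the same groups. The ratio of the first sum to the second ran from 0.471 to 0.599 in agonist libraries, 0.332 to 0.523 in tumor-draining libraries and 0.256 to 0.323 in healthy libraries. CD28 ligands thus outweighed PD-1 ligands in every library, by the least in the agonist group, whose range overlapped that of the tumor-draining group.

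**Figure D2:**
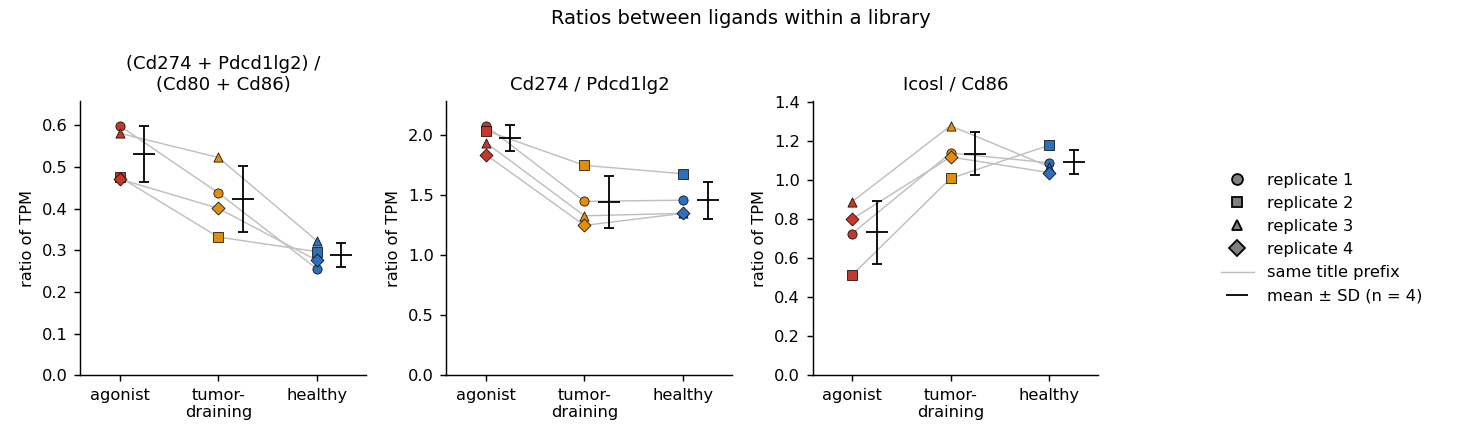
Ratios of TPM within each library (vertical axes), with groups along the horizontal axis, marker shapes for replicates, lines for the same title prefix and bars for the mean ± SD (n = 4). The Icosl to Cd86 ratio lies lower in agonist libraries, between 0.514 and 0.890, than in tumor-draining libraries, between 1.01 and 1.28. TPM are summed over all transcripts of a gene, noncoding and retained-intron ones included.

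Icosl (chromosome 10, 78069302 to 78083913, plus strand) encodes the ligand of ICOS. Agonist replicates had 195, 200.3, 309 and 303 CPM, tumor-draining replicates 303, 333, 374 and 351 CPM and healthy replicates 289, 296, 291 and 306 CPM. Agonist replicates 1 and 2 were below every other library, whereas replicates 3 and 4 lay near the highest healthy and the lowest tumor-draining library. Agonist libraries were nevertheless below the tumor-draining library of their own prefix in 4 of 4 pairs, by -0.73 to -0.21 on the log2 scale. The fold was 0.74 (0.58 to 0.94), with an adjusted p of 0.223 without the block and 0.0174 with it, a call lost without any single one of replicates 1 and 2 of the 2 groups (up to 0.0778). Relative to Cd86, Icosl stood at 0.733 ± 0.160 in agonist libraries, 1.14 ± 0.111 in tumor-draining libraries and 1.09 ± 0.0603 in healthy libraries (ratio of TPM summed over all transcripts, SD, n = 4 each). For the coding Icosl-201 and Cd86-201 alone, agonist and tumor-draining libraries overlapped in this ratio. These transcripts had 55.4 and 63.6 TPM in agonist replicate 3 and 36.1 and 54.4 TPM in tumor-draining replicate 1. For Icosl as a gene, neither the agonist to healthy fold of 0.85 (0.67 to 1.08) nor the tumor-draining to healthy fold of 1.15 (0.91 to 1.46) was called (adjusted p = 0.557 and 0.792, or 0.120 and 0.291 with the block).

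Vsir (chromosome 10, 60346851 to 60372684, plus strand) encodes VISTA, an inhibitory member of the family. It had 181, 177, 250.0 and 242 CPM in agonist replicates, 207, 195, 276 and 305 CPM in tumor-draining replicates and 187, 177, 249 and 273 CPM in healthy replicates. The 3 groups overlapped throughout, and in each of them replicates 1 and 2 were low and replicates 3 and 4 high. The prefix made up 88.3% of the variance of its log2 CPM and the group 10%. Within prefixes, agonist libraries were lower than tumor-draining libraries in 4 of 4 pairs, by -0.33 to -0.14 on the log2 scale (fold 0.87, 0.65 to 1.15; adjusted p = 0.791, or 0.0489 with the block). That block call was lost when any 1 of the 8 libraries was left out (0.0506 to 0.101). The tumor-draining to healthy fold was 1.11 (0.83 to 1.48) and the agonist to healthy fold 0.96 (0.72 to 1.28), neither called in either fit (adjusted p = 0.851 and 0.925, or 0.159 and 0.592 with the block).

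Cd276 (chromosome 9, 58524298 to 58555437, minus strand), which encodes B7-H3, was the lowest of the 7 ligands. Estimated counts were 238, 81, 156 and 89 in agonist replicates, 192, 114, 396 and 107 in tumor-draining replicates and 40, 53, 117 and 87 in healthy replicates. Their CPM averaged 3.16 ± 1.70 in agonist libraries, 4.24 ± 2.45 in tumor-draining libraries and 1.63 ± 0.531 in healthy libraries (SD, n = 4 each), and every tumor-draining library lay above every healthy one. The tumor-draining to healthy fold of 2.60 had an interval of 1.4 to 5.0 and was not called (adjusted p = 0.336, or 0.0813 with the block). The agonist to tumor-draining fold of 0.75 (0.39 to 1.41) was not called (adjusted p = 0.819) and its log2 value of -0.42 turned to 0.03 without tumor-draining replicate 3, the library with the highest level. The agonist to healthy fold was 1.94 (1.01 to 3.71; adjusted p = 0.282).

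**Figure D3:**
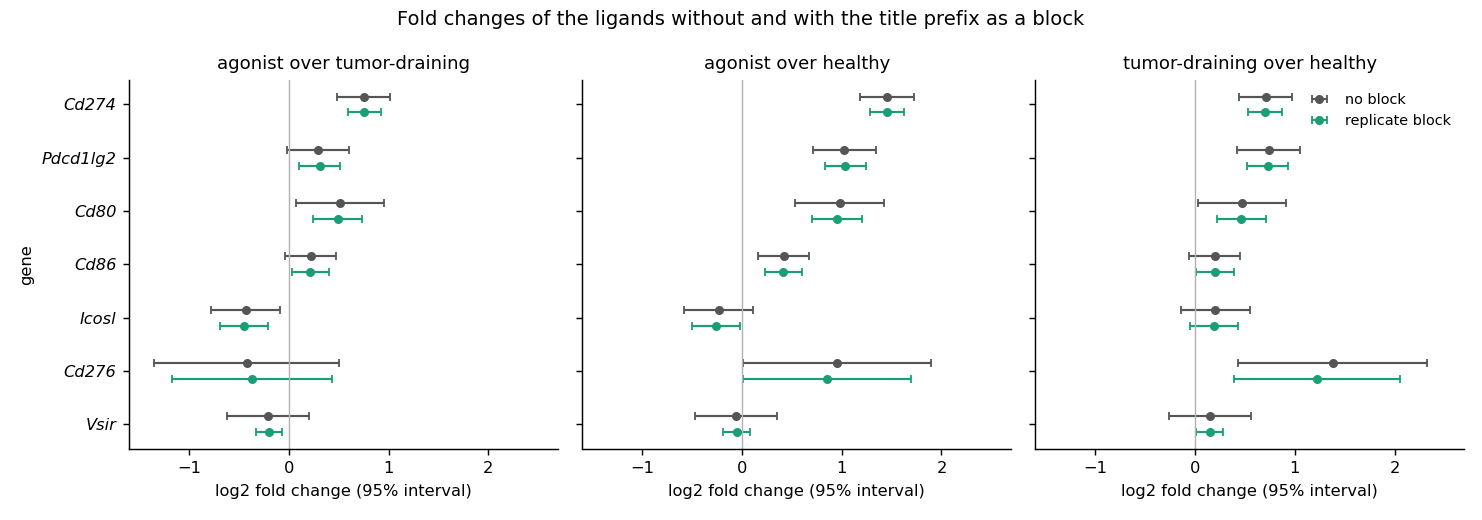
Log2 fold changes of the 7 ligands (horizontal axes, with 95% intervals) in 3 comparisons, from the fit without the title prefix (grey) and with it as a block (green). In both fits the intervals of Cd274 and Cd80 lie above 0 in each comparison, and that of Icosl lies below 0 for agonist over tumor-draining, between -0.78 and -0.09 without the block. Intervals are not adjusted for the number of genes tested, so an interval clear of 0 need not be a call.

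Counted over the family, 1 of 7 ligands was called higher in agonist than in tumor-draining nodes (1.85% of all genes tested), and with the block 3 were higher (6.74% of genes) and 2 lower (6.58%). Between agonist and healthy nodes 3 were called higher (4.25%), and 4 with the block (11.7%). Between tumor-draining and healthy nodes 1 was called higher (0.181%), and 3 with the block (4.02%). Median log2 fold changes over the 7 were 0.22, 0.95 and 0.47 in these comparisons, beside 0.02, -0.03 and -0.02 over all genes tested. Libraries of the 2 groups did not overlap, with the first group higher, for 1 of 7 ligands in the agonist and tumor-draining comparison (4.86% of genes), for 4 in the agonist and healthy comparison (7.60%) and for 4 in the tumor-draining and healthy comparison (2.57%).

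Per transcript length, Cd86, Icosl and Vsir were the 3 most abundant ligands in 12 of 12 libraries. For these 3, in that order, group means were 100.1 ± 21.3, 72.4 ± 18.1 and 78.9 ± 18.8 TPM in agonist libraries, 87.6 ± 13.2, 98.9 ± 10.5 and 88.2 ± 18.6 TPM in tumor-draining libraries and 82.2 ± 5.67, 90.0 ± 8.84 and 85.9 ± 18.7 TPM in healthy libraries (SD, n = 4 each), and the ranges of mean ± SD overlapped in every group. Within libraries, Cd86 exceeded Icosl in 4 of 4 agonist libraries, and Icosl exceeded Cd86 in all 8 others. These gene sums include noncoding and retained-intron transcripts. The coding Cd86-201 exceeded the coding Icosl-201 in all agonist libraries and also in replicates 1 and 2 of both other groups. Values there were 54.4 against 36.1 and 62.3 against 56.2 TPM (tumor-draining), and 48.2 against 36.6 and 57.9 against 48.6 TPM (healthy). In replicates 3 and 4 of those groups Icosl-201 was the higher. Cd274 came after Cd86, Icosl and Vsir in 12 of 12 libraries, at 40.7 ± 3.36, 24.6 ± 3.46 and 15.6 ± 2.02 TPM in agonist, tumor-draining and healthy libraries. Pdcd1lg2 lay above Cd80 in 10 of 12, and Cd276 was lowest in all 12. The 7 ligands together came to 331 ± 48.2 TPM in agonist libraries, 332 ± 31.2 TPM in tumor-draining libraries and 294 ± 25.5 TPM in healthy libraries. Cd274 made up 12.5% ± 1.75 of that sum in agonist libraries, 7.43% ± 0.919 in tumor-draining libraries and 5.30% ± 0.553 in healthy libraries, while Icosl made up 21.6% ± 3.03, 29.8% ± 1.44 and 30.6% ± 2.67.

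Of 25 annotated transcripts of these genes, 22 had a row in the tables. Cd274, Pdcd1lg2 and Cd80 each had a row for a single coding transcript, so their transcript values repeat those of the gene. Cd274 has 1 annotated transcript, Pdcd1lg2 has 2 and Cd80 has 3, and the remaining ones of Pdcd1lg2 and Cd80 had no row. Cd86 was led by the coding transcript Cd86-201, at 69.4 ± 15.1 TPM in agonist, 59.2 ± 5.52 TPM in tumor-draining and 52.3 ± 4.98 TPM in healthy libraries, which was 69.3% ± 2.24, 68.3% ± 8.83 and 63.5% ± 2.35 of the gene (SD, n = 4 each). The noncoding Cd86-202 held 22.7% ± 2.87, 20.2% ± 2.69 and 23.2% ± 2.94. Cd86-203 and Cd86-204, also noncoding, averaged 3.56 and 6.42 TPM over the 12 libraries, and the second ran from 0.542 to 18.8 TPM among tumor-draining libraries alone.

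Icosl combined the coding Icosl-201 with 2 retained-intron transcripts. Icosl-201 had 17.3, 33.6, 55.4 and 63.0 TPM in agonist replicates, 36.1, 56.2, 75.5 and 66.2 TPM in tumor-draining replicates and 36.6, 48.6, 53.7 and 56.9 TPM in healthy replicates. It was lower in the agonist than in the tumor-draining library of each prefix, as were both retained-intron transcripts, Icosl-202 and Icosl-204. Icosl-204 stood at 17.6 ± 1.08 TPM in agonist libraries, 25.0 ± 6.63 TPM in tumor-draining libraries and 25.4 ± 7.48 TPM in healthy libraries. The share of Icosl-201 was lowest in replicate 1 of every group, and ran from 32.9% to 69.5% in agonist libraries, 42.4% to 70.4% in tumor-draining libraries and 44.1% to 63.7% in healthy libraries. The other coding form, Icosl-203, averaged 1.82 TPM over all libraries.

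Vsir was divided nearly evenly between the coding Vsir-201 and Vsir-202 and the retained-intron Vsir-205. They held 27.4% ± 3.14, 32.1% ± 2.62 and 33.1% ± 3.32 of the gene in agonist libraries, 29.5% ± 3.07, 32.5% ± 1.84 and 32.7% ± 3.05 in tumor-draining libraries, and 27.7% ± 1.79, 33.0% ± 1.51 and 29.9% ± 3.80 in healthy libraries (SD, n = 4 each). Vsir-204 and Vsir-207 averaged 2.15 and 3.30 TPM over all libraries. For Cd276, where the coding Cd276-204 averaged 1.04 TPM, 1 transcript alone, Cd276-201, passed the filter.

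**Figure D4:**
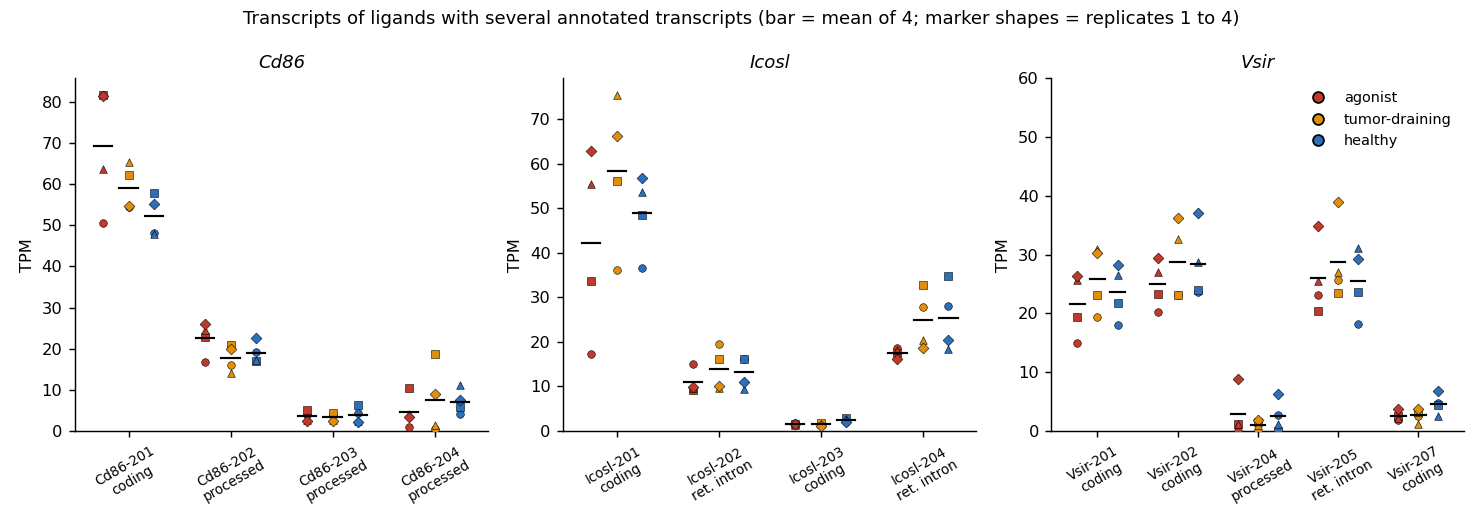
TPM of each transcript with a mean of at least 1 TPM for Cd86, Icosl and Vsir, with colours for groups (agonist left, then tumor-draining, then healthy), marker shapes for replicates and bars for means. Cd86-201 leads Cd86 at 50.7 to 81.7 TPM in agonist libraries, while 3 Vsir transcripts lie between 15.0 and 39.0 TPM in both groups with a tumor.

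In the test of single transcripts, Cd274-201 and Pdcd1lg2-201 were called higher in agonist than in healthy nodes (adjusted p = 0.00141 and 0.0250, with 0.732% of all transcripts tested called), and Cd80-201 with the block (0.00962, with 3.57%). Cd274-201 kept that call in 8 of 8 fits that left out 1 library of the 2 groups, and Pdcd1lg2-201 in 0 of 8 (adjusted p = 0.0531 to 0.108). Between agonist and tumor-draining nodes 0 of 18 member transcripts were called by edgeR without the block (0.0585% of all transcripts), with 2 at an unadjusted p under 0.05, and Cd274-201 was higher (adjusted p = 0.00942) and Vsir-201 lower (0.0482) with it (1.52%). Between tumor-draining and healthy nodes, 0 of 18 were called without the block (0% of all transcripts), with 5 at an unadjusted p under 0.05, and Cd274-201 was higher with it (0.0455, with 0.0278% of transcripts). Of the 14 transcripts of Cd86, Icosl and Vsir, 0 were called as changed relative to the rest of the gene in any comparison by edgeR's diffSpliceDGE, and 0 had an unadjusted p under 0.05 (smallest 0.0732, for Vsir-204 in the agonist and tumor-draining comparison). Limma on the share of counts called 0 of them as well. Over all transcripts these tests called 0.202% and 0.0106% for agonist over tumor-draining, 0.165% and 0.0124% for agonist over healthy, and 0.175% and 0.00885% for tumor-draining over healthy. On simulated data diffSpliceDGE missed most changes put in and made calls where there were none, and limma recovered almost none, so the absence of calls carries little information.

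Receptors of the CD28 family, not all of which bind 1 of the 7 ligands, were measured in the same libraries. Of 5 CD28 family receptors, Icos was called higher in agonist than in healthy nodes (24.0 ± 1.56 against 16.5 ± 1.34 CPM, log2 fold change 0.54, adjusted p = 0.0230, beside 4.25% of all genes). Btla, an inhibitory receptor also carried by dendritic cells and B cells, was the most abundant of the 5, at 162 ± 52.2 CPM in agonist, 279 ± 69.5 CPM in tumor-draining and 245 ± 46.5 CPM in healthy libraries. With the block it was lower in agonist than in tumor-draining nodes (adjusted p = 0.00186, or 0.125 without it) and than in healthy nodes (0.00436, or 0.208). Cd28 was lower in agonist than in healthy nodes with the block alone (log2 fold change -0.63, adjusted p = 0.0103, or 0.354 without it). Pdcd1, which encodes PD-1, and Ctla4 averaged 1.63 ± 0.552 and 2.05 ± 0.419 CPM in agonist libraries and were called in no comparison. T cell markers, 7 genes, summed to 149 to 348 CPM in agonist, 181 to 404 CPM in tumor-draining and 213 to 425 CPM in healthy libraries. Most of this was Cd4, at 215 ± 80.0, 233 ± 62.5 and 218 ± 62.6 CPM, so the sums follow Cd4 more than the other markers. Of the 7, 3 were called lower in agonist than in healthy nodes (6 with the block, beside 2.03% and 8.46% of all genes). With the block alone 3 were lower in tumor-draining than in healthy nodes (2.28% of all genes). Cd3g among them was at 5.74 ± 1.68 CPM in agonist, 6.99 ± 4.01 CPM in tumor-draining and 13.6 ± 2.58 CPM in healthy libraries. The part of these markers in the receptor levels was not tested.

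Of 9 genes on the path from interferon gamma to PD-L1, 2 rose in agonist relative to tumor-draining nodes (1.85% of all genes tested). Irf1, the transcription factor that acts on the PD-L1 gene, was at 491 ± 47.2 CPM in agonist, 285 ± 30.6 CPM in tumor-draining and 286 ± 37.2 CPM in healthy libraries (log2 fold change 0.79 over tumor-draining, adjusted p = 0.00734). Socs1, a feedback inhibitor, was at 15.8 ± 4.45, 7.08 ± 1.81 and 6.02 ± 1.57 CPM in the same groups (1.16, adjusted p = 0.0227). Irf1 and Socs1 were also called higher against healthy nodes (adjusted p = 0.00347 and 0.00379, beside 4.25% of all genes). The list's median log2 fold change there was 0.23, beside -0.03 over all genes. With the block 5 of the 9 were higher in agonist than in healthy nodes (11.7% of all genes). The further ones were Stat3, Irf9 and Ifngr2 (adjusted p = 0.000459, 0.00639 and 0.0219). Only 1 of the 9, Ifngr1, was lower there with the block (0.0393, beside 8.46% of all genes). With the block Ifngr1, a receptor subunit, was lower in agonist than in tumor-draining nodes (273 ± 32.8 against 365 ± 53.1 CPM, adjusted p = 0.00274, or 0.220 without it), as was the kinase Jak2 (0.0142, or 0.427 without it). Of all genes, 6.58% were called lower in that fit. Between tumor-draining and healthy nodes 0 of the 9 were called without the block, with 0 at an unadjusted p under 0.05 and 0 by DESeq2 or limma voom. With the block Jak2, Stat3 and Irf9 were higher there (adjusted p = 0.0281 to 0.0405, beside 4.02% of all genes). Irf1 had a log2 fold change of -0.01 (SE 0.14) there, and its part in the level of Cd274 was not tested.

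**Figure D5:**
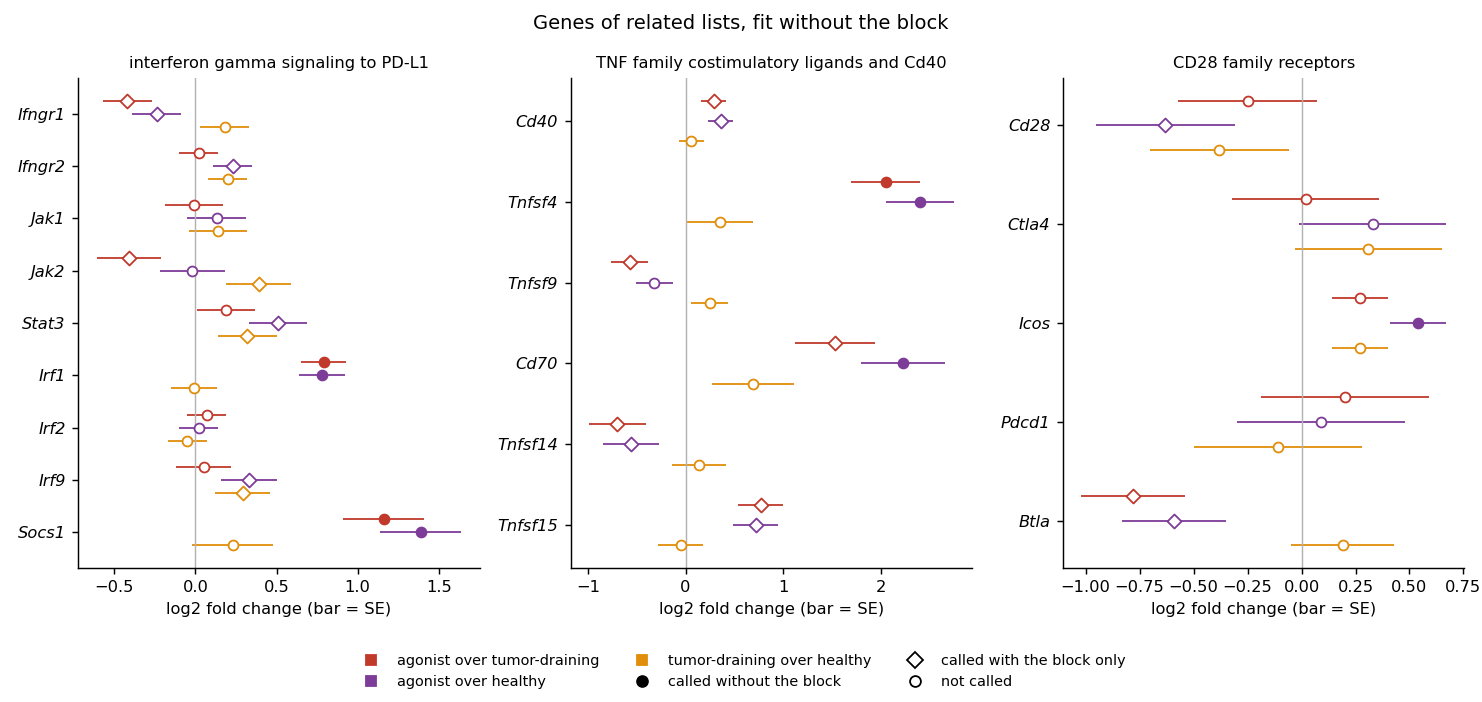
Log2 fold changes with SE (horizontal axes) of the genes of 3 related lists, coloured by comparison, with filled circles for genes called without the block, open diamonds for genes called with it alone and open circles for genes not called. Irf1 and Socs1 are filled in both agonist comparisons, at 0.78 to 1.39, and no gene is filled for tumor-draining over healthy.

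Of 6 genes for the stability and trafficking of the PD-L1 protein, 0 were called in any comparison by edgeR without the block, with 1, Spop, at an unadjusted p under 0.05 in each agonist comparison, and DESeq2 called 1 of them for agonist over healthy. Spop, an adaptor of a ubiquitin ligase, was higher with the block in agonist than in tumor-draining nodes (156 ± 12.8 against 125 ± 9.87 CPM, adjusted p = 0.00509, or 0.176 without it), and with Stub1 it was higher with the block in agonist than in healthy nodes (0.00146 and 0.0185). Cmtm6, a protein that keeps PD-L1 at the cell surface, lay at 192 ± 4.97, 179.5 ± 12.7 and 177 ± 9.60 CPM in agonist, tumor-draining and healthy libraries and was not called. Among 4 further binding partners of B7 ligands 0 were called by edgeR without the block or by DESeq2 or voom, with 1 at an unadjusted p under 0.05 in each agonist comparison. Rgmb, a binding partner of PD-L2, was higher with the block in agonist than in tumor-draining nodes (18.5 ± 2.98 against 13.8 ± 1.47 CPM, adjusted p = 0.00741, or 0.161 without it). Treml2 was likewise higher with the block (adjusted p = 0.0155, or 0.710 without it), and both were so against healthy nodes (0.0309 for Rgmb and 0.000385 for Treml2). Of 9 other B7-like and butyrophilin genes, 0 were called by edgeR without the block or by DESeq2 or voom, with at most 2 at an unadjusted p under 0.05 in a comparison, and Btn1a1 was lower in tumor-draining than in healthy nodes with it (0.756 ± 0.539 against 1.91 ± 1.36 CPM, adjusted p = 0.0309, or 0.682 without it).

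Costimulatory ligands of the TNF family were at low levels. Of 6 genes tested, with Cd40 among them, Tnfsf4, the OX40 ligand, rose in both agonist comparisons (log2 fold change 2.05 over tumor-draining and 2.40 over healthy nodes, adjusted p = 0.00635 and 0.000975). Of all genes, 1.85% and 4.25% were called higher in these comparisons. Cd70, the ligand of CD27, was at 2.18 ± 0.498 CPM in agonist, 0.751 ± 0.234 CPM in tumor-draining and 0.467 ± 0.305 CPM in healthy libraries (log2 fold change 2.23 over healthy, adjusted p = 0.00555; over tumor-draining, 0.0651, or 0.0159 with the block). Tnfsf15 was higher with the block in agonist than in tumor-draining nodes (5.50 ± 1.38 against 3.23 ± 0.0998 CPM, adjusted p = 0.0244, or 0.107 without it). Tnfsf9 and Tnfsf14, the 4-1BB ligand and LIGHT, were lower with the block in agonist than in tumor-draining nodes (adjusted p = 0.0222 and 0.00117, or 0.146 and 0.286 without it). Cd40 itself was at 154 ± 6.85, 126 ± 19.2 and 120.5 ± 12.4 CPM in agonist, tumor-draining and healthy libraries (over tumor-draining, adjusted p = 0.337, or 0.0193 with the block). Against healthy nodes the block added Tnfsf15 and Cd40 as higher in agonist nodes (0.0232 and 0.00521) and Tnfsf14 as lower (0.00305).

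Of the genes beside the ligands on the chromosome, Plgrkt, which starts 65 bases from Cd274 on the opposite strand, was at 36.0 ± 4.16 CPM in agonist, 34.7 ± 2.29 CPM in tumor-draining and 27.5 ± 2.52 CPM in healthy libraries, with a log2 fold change of 0.05 for agonist over tumor-draining (adjusted p = 0.949). Against healthy nodes it was called with the block alone, at a log2 fold change of 0.33 for tumor-draining nodes (adjusted p = 0.0150, or 0.425 without the block) and 0.39 for agonist nodes (0.00162, or 0.0746). Insl6, 42099 bases before Cd274, was at 11.6 ± 1.37, 5.17 ± 0.548 and 4.31 ± 1.47 CPM (log2 fold change 1.16 over tumor-draining nodes, adjusted p = 0.0118). The antisense gene A930007I19Rik overlaps Pdcd1lg2 and was at 2.04 ± 0.913, 1.54 ± 0.584 and 0.798 ± 0.225 CPM, called against healthy nodes with the block alone (agonist, adjusted p = 0.00224, or 0.0538 without it; tumor-draining, 0.0417, or 0.543). The sources used here do not say whether the counting used strand, so reads of this pair cannot be told apart with certainty. The same holds for Vsir and Cdh23, in which it lies on the opposite strand, at 4.80 ± 0.435, 3.94 ± 0.745 and 4.98 ± 1.02 CPM for Cdh23. A further antisense gene annotated inside Cd274 was not analysed here.

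Near Cd80, Poglut1 (28802 bases after it) was at 281 ± 33.7 CPM in agonist, 162 ± 15.5 CPM in tumor-draining and 184 ± 25.3 CPM in healthy libraries (log2 fold change 0.80 over tumor-draining, adjusted p = 0.00706). The phospholipase gene Pla1a, 22416 bases before it, was at 5.93 ± 3.80, 2.03 ± 1.36 and 0.672 ± 0.294 CPM (log2 fold change 3.14 over healthy, adjusted p = 0.00253). Timmdc1, 2012 bases after the end of Cd80, was not called (log2 fold change -0.15 over tumor-draining and 0.06 over healthy nodes). Adprh, 2858 bases before Cd80, was higher in agonist than in healthy nodes with the block (63.6 ± 6.70 against 42.7 ± 10.2 CPM, adjusted p = 0.000668, or 0.0518 without it), and so were tumor-draining nodes (0.0443, or 0.679). Insyn1 near Cd276 was higher in agonist nodes with the block (over tumor-draining, 0.0432, or 0.217 without it; over healthy, 0.0110, or 0.0582). Nptn, 26803 bases after Cd276, was lower in agonist than in healthy nodes (124 ± 9.86 against 186 ± 26.2 CPM, log2 fold change -0.59, adjusted p = 0.0163), and with the block also than in tumor-draining nodes (0.00203, or 0.0638 without it). The neighbours within 50 kb of Cd86, Icosl and Vsir that passed the filter were Casr, Ildr1, Aire, Dnmt3l, Gm47922, Psap and Cdh23, and none was called in any comparison in either fit.

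Within title prefixes, Cd274, Pdcd1lg2 and Cd80 varied together over the 12 libraries, with a Pearson r of 0.96 between Cd274 and Pdcd1lg2, 0.97 between Cd274 and Cd80 and 0.95 between Pdcd1lg2 and Cd80, against 0.92, 0.86 and 0.76 with the prefix left in. Cd86 followed them at 0.86 to 0.87. Icosl correlated with Vsir at 0.63 and with the other 4 of these at -0.54 to -0.38. These values are descriptions, because the libraries share groups, prefixes and depth. Among 9493 protein-coding genes of moderate or high level (mean log2 CPM 3 or more), those most like Cd274 were the glycolytic gene Gapdh, Pgm1 and the interferon-induced Oasl1 (r = 0.99 each within prefixes, and 0.77, 0.68 and 0.96 with the prefix left in). The likeness of the genes that follow was also lower with the prefix left in, at 0.58 to 0.94 for those of Pdcd1lg2, 0.68 to 0.78 for those of Cd80 and 0.54 to 0.92 for those of the other 4 ligands. Pdcd1lg2 was most like Uba1, Gstt3 and Casp8 (0.98 to 0.99), and Cd80 most like Trim25, Yaf2 and Parp12 (0.99 or more). Cd86 had Ifih1, an RNA sensor, first, then Sinhcaf and Klhl9 (0.95 to 0.96). For Icosl these were Sil1, St8sia6 and A630001G21Rik (0.90 to 0.91), for Cd276 Armc9, Por and Frrs1 (0.95 to 0.97), and for Vsir Ptpre, Hsd17b4 and Acap1 (0.98 each). The genes named for each ligand are the extremes of 9493 correlations over 12 libraries, so their values are high by selection.

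Markers of cell types moved with the groups as well. The 7 markers of migratory or mature dendritic cells, such as Ccr7 and Fscn1, summed to 4875 to 7823 CPM in agonist, 1749 to 3128 CPM in tumor-draining and 2125 to 3541 CPM in healthy libraries, with 4 of 7 called higher in agonist than in tumor-draining nodes (7 with the block, beside the shares of all genes called higher given above) and 1 of 7 in tumor-draining than in healthy nodes (2 with the block). Macrophage markers summed to 1195 to 1812, 668 to 1203 and 692 to 949.5 CPM in agonist, tumor-draining and healthy libraries, and of the 10, 2 were called higher and 1 lower in agonist than in tumor-draining nodes, and 6 higher and 2 lower than in healthy nodes. Vsig4 among them had no count in 9 of 12 libraries, and no marker of another list was at 0 in any library. Type 1 conventional dendritic cell markers summed to 914 to 1957, 1839.7 to 3652 and 2212 to 3881 CPM in the same groups. Most of this was Wdfy4, at 1318 ± 421, 2217 ± 683 and 2438 ± 668 CPM. Of the 6 type 1 markers, 1 was called lower in agonist than in tumor-draining nodes and 4 lower than in healthy nodes (5 in each with the block). Of all genes tested, 0.830% and 2.03% were called lower in these comparisons without the block, and 6.58% and 8.46% with it, and 2.28% were called lower in tumor-draining than in healthy nodes with it. Type 2 conventional dendritic cell markers summed to 982 to 1589.9, 1214 to 1898 and 942 to 1529 CPM, with 3 of 6 lower in agonist than in tumor-draining nodes in both fits. These were Clec10a, Mgl2 and Cd209a, the last at 28.7 ± 15.0, 183 ± 50.3 and 253 ± 77.4 CPM in agonist, tumor-draining and healthy libraries. Other type 2 markers went the other way. Clec4a4 was higher in tumor-draining than in healthy nodes (adjusted p = 0.0436). The block added Sirpa and Itgam there (0.00236 and 0.00937, or 0.389 and 0.344 without it). Agonist nodes had 1 of 6 higher and 3 lower than healthy nodes, and 3 and 3 with the block. Both Langerhans cell markers were lower in agonist than in healthy nodes, with sums of 20.5 to 23.9 against 70.0 to 88.2 CPM, and 3 of 4 plasmacytoid dendritic cell markers were lower in agonist than in either other group with the block alone. Plasma cell markers summed to 174 to 300.3, 181 to 384 and 134 to 175 CPM. The largest part in the group means was Xbp1, at 147 ± 21.4, 154 ± 33.1 and 126 ± 15.7 CPM. Both tumor-draining and agonist nodes had 2 of 5 higher than healthy nodes (3 in each with the block). Natural killer cell markers had 1 of 6 higher and 1 lower in agonist than in tumor-draining nodes (3 and 1 with the block), and monocyte markers 1 of 5 lower. Endothelial and stromal markers had 0 of 6 called in any comparison in either fit. B cell markers, which bear on Icosl since B cells carry it, summed to 229 to 400.1, 225 to 377 and 181 to 339.7 CPM. Of the 6, 1 was called higher in agonist than in tumor-draining nodes, Fcer2a (47.0 ± 11.6 against 23.2 ± 4.92 CPM, adjusted p = 0.0417), and 2 with the block. Neutrophil markers summed to 65.1 to 114, 52.5 to 179 and 23.2 to 32.5 CPM, with 1 of 6 higher in tumor-draining than in healthy nodes (5 with the block). In agonist nodes 3 of 6 were higher than in healthy nodes (6 with the block). Itgax was lower in agonist than in tumor-draining libraries in 4 of 4 pairs (log2 fold change -0.41, adjusted p = 0.431, or 0.0260 with the block). The part of these shifts in the levels of the 7 ligands was not tested.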

How the data were processed

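Estimated counts per transcript were computed by the authors with Salmon, and deposited without normalization; the submitters' processing notes name mouse build mm10. The deposited TPM values, scaled by the authors per library, came from the same quantification. The tables' deposited name says sailfish, a related program, and the sources used here do not give its version or annotation. Libraries were made with the stranded NEBNext Ultra II Directional kit, per the labels' protocols. Salmon divides reads shared by transcripts by a model.

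Of 132374 transcripts, 131974 matched GENCODE M21 (GRCm38) and were summed to 52355 genes and rounded. Totals ran from 32626784 to 56320661 counts per library. Genes were tested with edgeR 4.0.16 (R 4.3.3): quasi-likelihood F test, robust fit, TMM scaling, filterByExpr with a minimum count of 10 (23729 genes, 68421 transcripts), all 12 libraries, the group as the only term, 9 residual degrees of freedom, with calls below an adjusted p (Benjamini-Hochberg) of 0.05. Intervals are t limits from that fit. Log CPM used a prior count of 2.

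Titles share a prefix between 1 library of each group, which gave replicates 1 to 4. Deviations from the group means correlated at 0.20 to 0.47 (median 0.39) in 12 same-prefix pairs and at -0.45 to 0.33 (median -0.24) in 36 others. This was read as pairing by prefix, although the ranges overlap. Deviations cancel out within a group, so positive same-prefix values pull the others down. A fit with it as a block (6 residual degrees of freedom) stands beside the first. Replicates of a group differed beyond sampling noise. The scripts were tested on simulated data. Alternatives were DESeq2 1.42.0, limma 3.58.1 and others given at the end.

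The 7 genes and the related lists were chosen with earlier results of these data known, and 1 gene of a related list is not reported here. Named genes are the 7 ligands, their transcripts with a mean of at least 1 TPM, up to 3 genes of smallest p per list and comparison, neighbours within 50 kb, the 3 genes most like each ligand, Cd40 and Itgax. Chosen outside it after their values were seen were Cd276-201, Ccr7, Fscn1, Vsig4, Ifngr1, Ifngr2, Irf9, Tnfsf14, Pdcd1, Cd3g, Cd4, Clec10a, Mgl2, Cd209a, Clec4a4, Sirpa, Itgam, Wdfy4, Xbp1 and Fcer2a. The promoter motifs were also chosen then.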

Additional observations from a re-analysis of the deposited data

Results flagged for a closer look

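In 78 groups of 4 values, 3 held a library set apart from the others by a gap above Dixon's 95% critical value for 4 samples, where chance gives about 1 in 20. Cd274 was at 168 CPM in agonist replicate 4 and at 201 to 207 CPM in the other agonist libraries (gap over range 0.846), and still above every tumor-draining library. Icosl-202 was at 15.0 TPM in agonist replicate 1 and at 9.17 to 9.88 TPM in the other agonist libraries (0.878). Vsir-204 was at 8.82 TPM in agonist replicate 4 and at 0 to 1.23 TPM in the others (0.861). The causes were not tested.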

How the results depend on the processing

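The count of ligands called between tumor-draining and healthy nodes, 1 without the block, was 3 with the prefix as a block, 2 with DESeq2, and 0 with limma voom, with limma on log2(TPM + 1) and on log2(TPM + 0.1), and with the 2 groups compared alone. It ran from 0 to 1 with a library left out, and with the block from 2 to 4, or from 2 to 3 without a whole prefix. Between agonist and tumor-draining nodes the count was 1, 5 with the block and 1 to 1 with a library left out, and with the block 1 to 4 on leaving out a library or a prefix. Between agonist and healthy nodes it was 3, 4 with the block and 3 to 4 with a library left out (with the block 4 to 5, or 3 to 4 without a prefix). Transcripts called with the block numbered 1 for tumor-draining over healthy and 2 for agonist over tumor-draining, against 0 and 0 without it. Transcripts called for agonist over healthy numbered 2, with 1 under RLE size factors and 1 to 1 with a library left out. The log2 fold change of Vsir for agonist over healthy turned to 0.00, 0.01 and 0.06 without agonist replicate 1, agonist replicate 2 and healthy replicate 4 (-0.16 to 0.06 over the 8 libraries), and that of Cd276 for agonist over tumor-draining to 0.03 without tumor-draining replicate 3 (-0.84 to 0.03). No other direction turned, and of the ligands' calls the block changed those given above and no other. Over all genes, calls for tumor-draining over healthy numbered 47, with 1495 (block), 370 (DESeq2), 75 (no filter), 26 (length-scaled counts), 25 (2 groups alone), 10 (each TPM setting), 1 (voom) and 0 to 101 (a library left out). For agonist over tumor-draining they numbered 635, with 3161 (block), 1186 (DESeq2), 289 and 266 (TPM + 1 and + 0.1) and 323 to 477 (a library left out). For agonist over healthy they numbered 1490, with 4781 (block), 821 and 818 (TPM) and 829 to 1243 (a library left out). The cause of these shifts was not tested. Depth limits Cd276, with 40 to 396 counts.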
